A study of Mus musculus with 8 samples.

Results

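The comparison described here set differentiated adipocytes against the 2 skeletal lineages made from the same kind of precursor, chondrocytes and osteocytes, and asked which genes differed in the same direction against both. It used 3 of the 8 Illumina arrays of the series, 1 for each cell type, chosen by the cell type in the labels. All 8 arrays came from bone marrow mesenchymal stem cells (MSCs) of adult C57BL/6J mice, with no gene deletion or transgene named in the labels. The title numbers are d 7 for adipocytes, d 28 for chondrocytes and d 21 for osteocytes, and their meaning is not given, so that this number and the lineage cannot be told apart. Undifferentiated MSCs had 2 arrays, titled d 0 and p 4, and reprogrammed adipocytes, chondrocytes and osteocytes (p 1) had 1 array each. The differentiation media, the number of animals and the cell culture were not stated, and no label says whether arrays stand for separate cultures or separate mice. P-values therefore measure only the spread between these arrays, part of which may be technical. That spread is pooled within groups that mix lineages, or MSC arrays of different titles, and is not one between known replicates.

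Fat cells, cartilage cells and bone cells share a stromal precursor in the marrow. Fat cell fate is set by the transcription factors PPARG and CEBPA, which switch on the enzymes that build triglycerides, the proteins that coat the lipid droplet and the lipases that empty it. Cartilage fate is set by SOX9 and bone fate by RUNX2 and SP7 (osterix), and both lineages lay down a collagen matrix that proteases and their inhibitors remodel. Fat cells round up as they fill, and loss of actin stress fibres is a known step of their differentiation.

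Levels are given as log2 of the deposited linear value plus an offset of 16, which shrinks differences where signals are low. A gene was kept when a named probe reached a deposited log2 value of 6 (6.32 after the offset) on at least 1 of the 3 arrays, which left 8685 genes. The deposited columns share a median of 3.90. The number of probes at a deposited log2 value of 6 or more was also the same, 12610 on each of the 3 arrays. Depth in the sense of reads therefore does not apply, and the number of arrays limits the precision. The nearer difference of a gene is its difference from whichever skeletal array lies closer to the adipocyte array, and it is set to 0 where the adipocyte level lies between them. A gene was called by size when it lay at least 2-fold (a log2 of 1) above both skeletal arrays or below both. With 1 adipocyte array the size rule is a description. The test was limma over all 8 arrays in 4 groups, in which the adipocyte array is assumed to vary like the other groups and the spread, with 4 residual degrees of freedom, is one between lineages and between the MSC arrays. Fewer cells of a type in a culture and less RNA per cell cannot be told apart on such arrays.

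The adipocyte array carried the markers of its label. Cidec, which fuses lipid droplets, had a level of 13.89 in adipocytes, 7.83 in chondrocytes and 5.09 in osteocytes. Ces1d, a carboxylesterase that hydrolyses stored triglyceride, had a level of 13.84 in adipocytes, 4.24 in chondrocytes and 7.26 in osteocytes. Pparg, Cebpa, Adipoq, Plin1 and Lpl were also at least 2-fold above both skeletal arrays. Fabp4, the fatty acid binding protein of fat cells, had a level of 7.03 in adipocytes, above 4.67 in chondrocytes and 4.52 in osteocytes.

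The skeletal arrays carried the markers of their labels in part. Sox9 was high on both, and Col2a1, the main collagen of cartilage, had 9.19 in chondrocytes and 5.20 in osteocytes, beside 7.02 and 8.81 in the MSC arrays. Col10a1, the collagen of mature cartilage cells, had 7.63 and 4.79, beside 6.07 and 5.48, and Hapln1, which links cartilage proteoglycans, 6.65 and 4.41, beside 4.09 on each MSC array. Acan, the main cartilage proteoglycan, stayed below 6.32, with 6.06 in chondrocytes. Several genes of bone-forming cells were higher in the culture labelled chondrocytes than in that labelled osteocytes, though Pdpn was not. Ibsp, a bone matrix sialoprotein, had 11.71 there and 5.79 in osteocytes, and Alpl, the alkaline phosphatase of mineralising cells, had 10.58 and 5.81. Dmp1 and Sost, made by mature osteocytes, were below 6.32 on all 3 arrays, and Runx2 was not analysed here. Both skeletal arrays are therefore named by their labels only.

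Markers of blood-derived cells moved with the lineages. Of 24 macrophage and monocyte markers with a probe, 1 reached the level in adipocytes (Cd14), 8 in chondrocytes and 2 in osteocytes, with summed linear levels of 534.1, 2039.5 and 728.2, while Csf1r, Tyrobp and Ptprc were below it on all 3. Of 12 osteoclast markers, 1, 2 and 2 reached it, with sums of 373.5, 3765.1 and 1300.2, of which Ctsk, the collagen-cleaving protease of osteoclasts that stromal cells also make, was the largest part in both skeletal cultures. The part of these cells in the results below was not tested.

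Adipocytes stood farther from the skeletal arrays than these did from each other. Over the 8685 genes, Pearson's r across genes was 0.776 between adipocytes and chondrocytes, 0.819 between adipocytes and osteocytes and 0.889 between chondrocytes and osteocytes. With MSCs d 0 it was 0.819 for adipocytes, 0.883 for chondrocytes and 0.936 for osteocytes. The osteocyte array was thus nearer to MSCs d 0 than to the chondrocyte array. At least 2-fold differences numbered 2771 genes against chondrocytes and 2477 against osteocytes, compared with 1427 (16.4%) between the skeletal arrays. Only 39 genes were at least 2-fold above one skeletal array and at least 2-fold below the other.

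By the size rule 731 genes (8.42% of those tested) were higher in adipocytes than in both skeletal lineages and 919 (10.6%) were lower, 19.0% together. Limma called 474 genes higher (5.46%) and 424 lower (4.88%) at a Benjamini-Hochberg adjusted p of 0.05 or less, and 897 of these 898 (10.3%) were also called by size in the same direction. With the 3 differentiated arrays alone, limma called 0 genes in either direction, while 663 genes higher and 717 lower had an unadjusted p under 0.05, so every adjusted p below rests on the spread shared with the other arrays. Leaving out the reprogrammed chondrocyte array lowered the calls to 189 higher and 160 lower, leaving out the reprogrammed adipocytes gave 280 and 257, leaving out the reprogrammed osteocytes gave 308 and 251, and leaving out the differentiated osteocytes gave 475 and 717. Named genes were refitted under up to 17 alternatives. A block for d or p titles is the same fit as leaving out either MSC array, so a call lost there is counted repeatedly. Of those refitted whose limma call is given here, Cycs and Acta2 lost it under 10, Cenpa and Inhba under 7, Cs, Sox9 and Ier3 under 6, Insr and Lss under 5, and Rrm2 and Ndufv1 under 4.

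The median nearer difference of the genes called by size was 1.52 for the higher and -1.54 for the lower genes, and 28 genes in each direction differed by at least 4. The nearer difference exceeded the gap between chondrocytes and osteocytes for 711 of the 731 higher genes, with a median gap of 0.32. It did so for 807 of the 919 lower genes, with a median gap of 0.58. The size rule asks for at least 1 and the median gap over all genes was 0.39, so these counts are no support of their own. The offset also shrinks the gap where both skeletal arrays are dim. Of the higher genes 473 (64.7%) passed limma, and of the lower genes 424 (46.1%). For 200 of the higher genes both skeletal arrays, and for 406 of the lower genes the adipocyte array, lay below 6.32, so these genes entered through one side and their folds are bounds. With every value floored at 6.32, 641 of the higher and 661 of the lower calls were left.

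**Figure D1:**
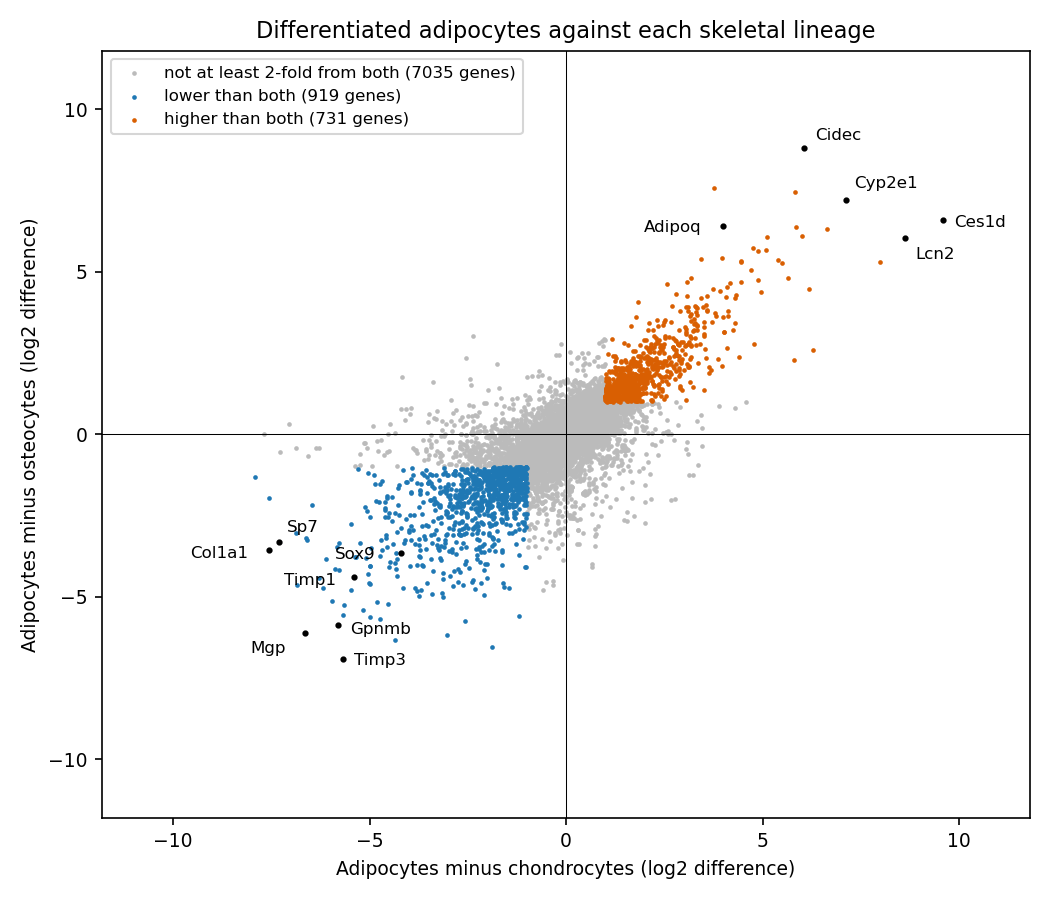
Log2 difference of the adipocyte array from the chondrocyte array (x axis) and from the osteocyte array (y axis) for 8685 genes, each a point. Orange marks the 731 genes at least 2-fold above both skeletal arrays, blue the 919 at least 2-fold below both, and black named genes, of which Ces1d and Cidec lie at the upper right and Timp3 and Mgp at the lower left.

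The enzymes of triglyceride synthesis that passed the filter were higher than in both skeletal lineages. Of 12 such genes with a probe, 7 passed the filter on level, all 7 were at least 2-fold above both skeletal arrays and 6 passed limma, beside 8.42% and 5.46% over all genes. Their median difference from the mean of the skeletal arrays was 3.82, and 3.59 with values floored at 6.32, beside medians of -0.03 and -0.04 over all genes. Gpat3, Aqp7 and Gpam entered through the adipocyte array alone, where they had to be higher, so the count is no support of its own. Lpin2, Mogat1, Mogat2, Gpd1 and Pck1 stayed below the level on all 3 arrays.

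The enzymes can be followed along the pathway. Gpat3, which attaches the first fatty acid to glycerol phosphate, had a level of 11.38 in adipocytes, 6.26 in chondrocytes and 5.31 in osteocytes, at least 33.3-fold higher (difference from the skeletal mean 5.59, SE 0.54, limma's adjusted p = 0.0029). Agpat2, which attaches the next, had 13.67 in adipocytes, 8.27 in chondrocytes and 8.32 in osteocytes, a 41-fold excess over the nearer array (difference 5.38, SE 0.30, limma's adjusted p = 0.000528). Lpin1, the phosphatase that follows, had 10.75 in adipocytes, 8.19 in chondrocytes and 8.61 in osteocytes and did not pass limma (adjusted p = 0.0545). For these steps the skeletal arrays lay close together and the adipocyte array lay far above.

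Both enzymes of the last step were high. Dgat2, which makes triglyceride mainly from newly made fatty acid, had 12.68 in adipocytes, 6.85 in chondrocytes and 5.22 in osteocytes, 56.9-fold above the nearer array (difference 6.64, SE 0.79, limma's adjusted p = 0.00564). Its partner Dgat1 had 10.06 in adipocytes, 6.62 in chondrocytes and 5.86 in osteocytes, 10.9-fold above (limma's adjusted p = 0.00293). Aqp7, a channel that carries glycerol across the fat cell membrane, had 8.38 in adipocytes, 5.32 in chondrocytes and 4.47 in osteocytes, at least 4.17-fold higher (limma's adjusted p = 0.0109).

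Proteins of the lipid droplet surface were called in both directions. Of 13 with a probe, 9 passed the filter. By size 6 were higher and 1 lower, beside 8.42% and 10.6% of all genes, and 5 and 1 passed limma, beside 5.46% and 4.88%. The median difference was 3.10 (2.45 floored). Plin1 entered through the adipocyte array alone, where it had to be higher. Cidec, at the levels given above, was 66.8-fold above the nearer array (difference 7.43, SE 1.02, limma's adjusted p = 0.00796). Plin1, which guards the droplet against lipases until hormones signal, had 8.77 in adipocytes, 4.87 in chondrocytes and 4.36 in osteocytes, at least 5.47-fold higher (limma's adjusted p = 0.00256). Plin2, the droplet coat found in most cells, had 11.24 in adipocytes, 8.33 in chondrocytes and 7.44 in osteocytes, and Fitm2, which helps droplets bud, 12.56 in adipocytes, 9.51 in chondrocytes and 9.41 in osteocytes, both passing limma (adjusted p = 0.0201 and 0.0126). Plin3, a coat protein that also resides in the cytosol of most cells, went the other way, with 6.89 in adipocytes, 8.83 in chondrocytes and 8.51 in osteocytes (limma's adjusted p = 0.0169). Among the highest genes outside this list was Adig (adipogenin), a small membrane protein of fat cells, with 11.00 in adipocytes, 5.13 in chondrocytes and 4.62 in osteocytes, at least 25.5-fold higher (limma's adjusted p = 0.000596).

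The promoters of Plin1 and Adig are shown because PPARG and C/EBP proteins are the known regulators of the fat cell programme and both genes were below 6.32 on both skeletal arrays. The sequences run 5′ to 3′ over 300 bases, 250 before and 50 after the annotated start, from RefSeq (GRCm38.p6). Plin1 lies on the minus strand of chr7:79732727-79733026, with C/EBP matches (TTGCNNAA, in capitals) that begin 187 and 58 bases before the start. Adig lies on the plus strand of chr2:158502362-158502661, with the nuclear receptor hexamer (AGGTCA, in capitals) 154 bases before the start. Genes and motifs were picked with the values in view.
Plin1: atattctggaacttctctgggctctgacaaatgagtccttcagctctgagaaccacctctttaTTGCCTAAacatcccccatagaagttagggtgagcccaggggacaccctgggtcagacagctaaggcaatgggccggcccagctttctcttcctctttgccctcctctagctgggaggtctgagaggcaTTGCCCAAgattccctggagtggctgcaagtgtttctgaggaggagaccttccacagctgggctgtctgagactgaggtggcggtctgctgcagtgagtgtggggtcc
Adig: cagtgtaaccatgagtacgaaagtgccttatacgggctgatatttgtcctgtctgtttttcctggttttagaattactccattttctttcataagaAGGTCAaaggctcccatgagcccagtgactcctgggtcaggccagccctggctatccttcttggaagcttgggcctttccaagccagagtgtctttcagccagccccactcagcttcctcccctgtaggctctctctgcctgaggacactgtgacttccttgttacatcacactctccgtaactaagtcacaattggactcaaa

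The C/EBP letters were found, on either strand, in 11.2% of the 616 promoters matched to genes higher in adipocytes, in 7.86% of the 725 matched to lower genes, in 8.04% of the 7098 matched to genes kept and in 10.8% of all 27025 promoters. The hexamer was in 14.8%, 10.5%, 11.2% and 16%, so that for both motifs the share over all promoters was near to or above that of the higher genes. A direct repeat of the hexamer spaced by 1 base, as PPARG and RXR bind it, was in 0 promoters of either called group and in 0.0444% of all. A repeat also counts as a hexamer. A match describes letters in this window and no binding.

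Lipases and their regulators were high as well, on the same array as the synthetic enzymes. Of 9 with a probe 7 passed the filter, and 5 were at least 2-fold above both skeletal arrays, beside 8.42% of all genes. The same number passed limma, beside 5.46%, with a median difference of 4.11 (3.17 floored). Lipe and Ces1f entered through the adipocyte array alone, where they had to be higher. Pnpla2 (adipose triglyceride lipase, which removes the first fatty acid) had 14.14 in adipocytes, 9.16 in chondrocytes and 9.77 in osteocytes, a 20.6-fold excess (difference 4.67, SE 0.37, limma's adjusted p = 0.00225). Abhd5, its co-activator, had 12.08 in adipocytes, 9.05 in chondrocytes and 8.78 in osteocytes (limma's adjusted p = 0.00256). G0s2, an inhibitor of the same lipase, had 10.14 in adipocytes, 7.57 in chondrocytes and 5.50 in osteocytes (limma's adjusted p = 0.0305). The lipase, its activator and its inhibitor were thus all above both skeletal arrays.

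Further along this path, Lipe (hormone-sensitive lipase) had 10.51 in adipocytes, 5.43 in chondrocytes and 4.85 in osteocytes, at least 18.2-fold higher (limma's adjusted p = 0.00227). Another probe of Lipe had a nearer difference of 2.13, against 5.08 for this one. Ces1d was 95.9-fold above the nearer array (difference 8.09, SE 1.08, limma's adjusted p = 0.00751), and its relative Ces1f at least 6.65-fold. The Ces1 genes are close copies, so their probes may share signal. Mgll, which cleaves the last fatty acid, had 7.80 in adipocytes, 7.92 in chondrocytes and 5.01 in osteocytes and was not above both skeletal arrays. Without the offset Ces1d and Plin1 did not pass limma.

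Fatty acid uptake and insulin response showed smaller differences. Of 10 uptake and binding genes that passed the filter (11 with a probe), 5 were higher by size and 4 by limma, beside 8.42% and 5.46% over all genes. Their median difference was 1.38 (0.82 floored). Cd36 and Fabp4 entered through the adipocyte array alone, where they had to be higher. Fabp5, a fatty acid binding protein of fat cells and macrophages, had 11.76 in adipocytes, 6.86 in chondrocytes and 6.12 in osteocytes, 29.8-fold above the nearer array (limma's adjusted p = 0.0203). Cd36, a fatty acid transporter, had 8.30 in adipocytes, 5.12 in chondrocytes and 4.59 in osteocytes, at least 3.93-fold higher (limma's adjusted p = 0.00293). Lpl, the lipase that frees fatty acids from lipoproteins, was bright everywhere, with 15.05 in adipocytes, 12.16 in chondrocytes and 13.56 in osteocytes and 14.23 in MSCs d 0, and did not pass limma (adjusted p = 0.132).

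Of 8 insulin signalling genes that passed the filter (10 with a probe), 4 were higher by size and 3 by limma, beside 8.42% and 5.46% over all genes. Their median difference was 1.31 (0.56 floored). Akt2 and Slc2a4 entered through the adipocyte array alone, where they had to be higher, so these counts are no support of their own. With values floored, the 2 were at least 1.24-fold and 1.43-fold higher. Insr, the insulin receptor, had 11.13 in adipocytes, 8.71 in chondrocytes and 9.37 in osteocytes (limma's adjusted p = 0.0271). Slc2a4, the insulin-regulated glucose transporter GLUT4, was dim, with 6.84 in adipocytes, 5.08 in chondrocytes and 4.98 in osteocytes (limma's adjusted p = 0.0184). Irs1, an adaptor of the receptor, was below 6.32 on all 3 arrays.

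**Figure D2:**
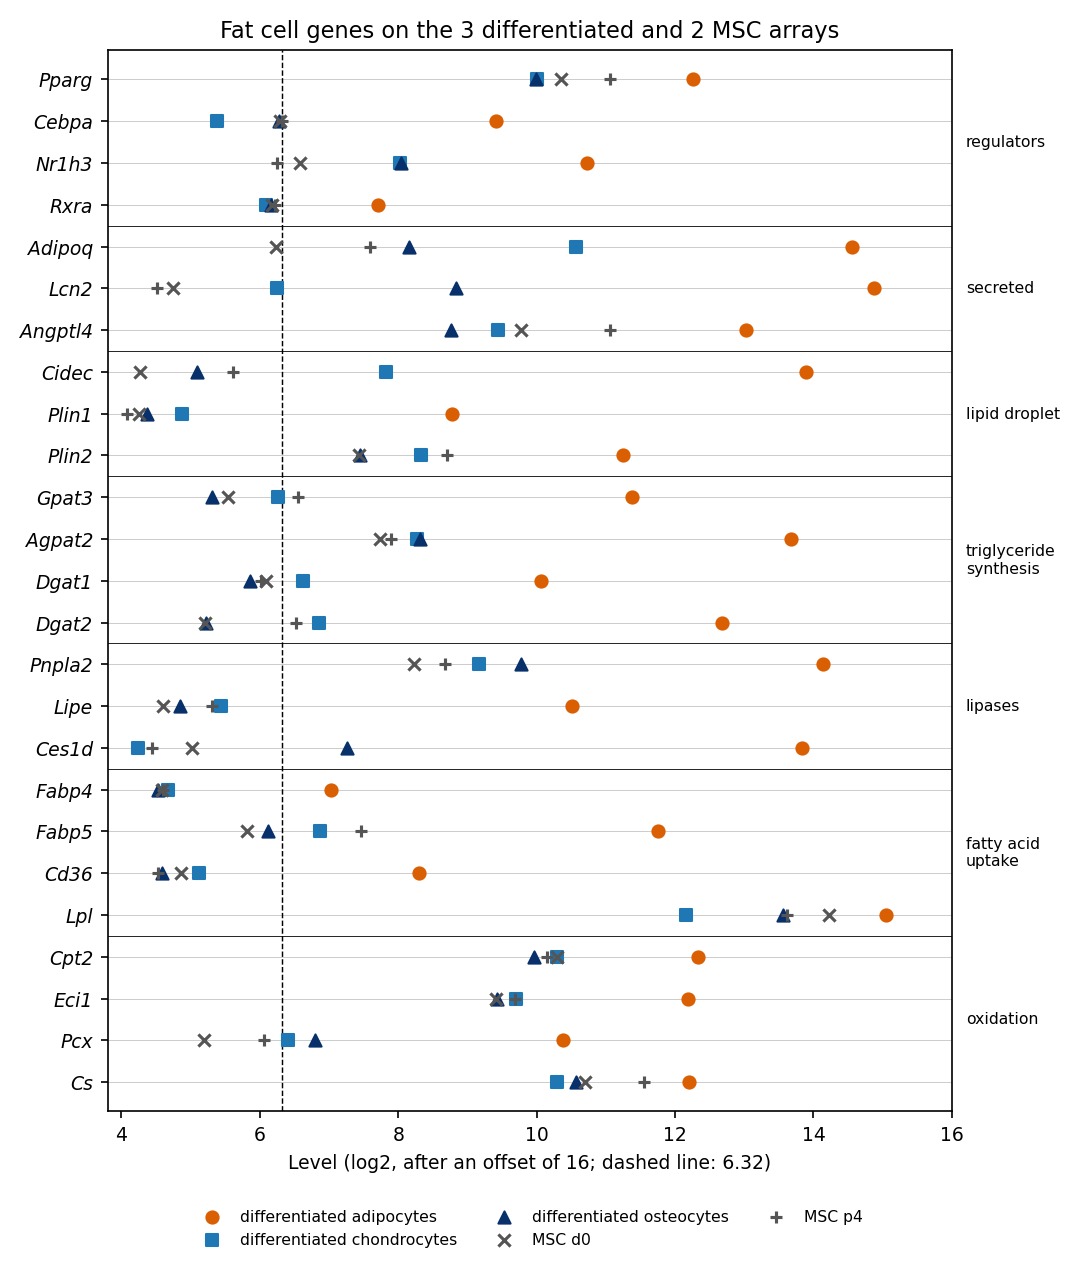
Log2 levels (x axis, after an offset of 16) of fat cell genes grouped by role (rows), with 1 symbol for each of the 3 differentiated and 2 MSC arrays; the dashed line is the level of 6.32. The adipocyte symbol (orange circle) is the rightmost in every row, and the MSC symbols lie near the skeletal ones in most rows. MSC d 0 comes nearest to it for Lpl, at 14.23, and MSC p 4 comes nearer still for Cs, at 11.55 beside 12.21 in adipocytes.

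Enzymes of fatty acid synthesis and desaturation divided into higher and lower genes. Of 15 with a probe 11 passed the filter, 4 of them higher and 3 lower by size (2 and 1 by limma). Over all genes 8.42% were higher and 10.6% lower by size (5.46% and 4.88% by limma). The median difference of the 11 was 0.98. Elovl3 entered through the adipocyte array alone and had to be higher, and 2 genes entered through the skeletal arrays alone and had to be lower. Elovl3, which elongates long saturated fatty acids, had 8.75 in adipocytes, 4.59 in chondrocytes and 4.09 in osteocytes, at least 5.38-fold higher (limma's adjusted p = 0.00247). Acss2, which makes acetyl-CoA from acetate, had 11.06 in adipocytes, 9.45 in chondrocytes and 9.06 in osteocytes (limma's adjusted p = 0.0228), while Scd1, a desaturase, had 14.47 in adipocytes, 12.65 in chondrocytes and 10.41 in osteocytes and did not pass (limma's adjusted p = 0.0585). Fads1, a desaturase of polyunsaturated fatty acids, was lower, with 10.57 in adipocytes, 12.00 in chondrocytes and 11.67 in osteocytes (limma's adjusted p = 0.0397). Fasn and Acaca, the central enzymes of fatty acid synthesis, had levels of 4.67 and 4.76 in adipocytes, below 6.32 as on both skeletal arrays.

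Regulators of the fat programme included higher and lower genes. Of 18 transcription factors and co-regulators that passed the filter (22 with a probe), 9 were higher and 3 lower by size, and 7 and 3 by limma. Over all genes 8.42% were higher and 10.6% lower by size, and 5.46% and 4.88% by limma. Of the 18, 5 entered through the adipocyte array alone and 2 through the skeletal arrays alone, and the median difference was 1.31 (0.94 floored). Pparg had 12.26 in adipocytes, 10.01 in chondrocytes and 9.99 in osteocytes, with 10.35 and 11.06 in the MSC arrays d 0 and p 4, so p 4 lay between the skeletal and the adipocyte levels (4.78-fold, limma's adjusted p = 0.023). Cebpa had 9.41 in adipocytes, 5.38 in chondrocytes and 6.28 in osteocytes, at least 8.52-fold higher (limma's adjusted p = 0.0167). The early factors Cebpb and Cebpd, which precede them in differentiation, had 12.31, 11.08 and 12.11 and 9.23, 9.06 and 9.29 in the same order of arrays, within 2-fold of at least 1 skeletal array.

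Partners of PPARG and lipid-sensing factors were also higher. Nr1h3, the oxysterol receptor LXR alpha, had 10.73 in adipocytes, 8.02 in chondrocytes and 8.04 in osteocytes (limma's adjusted p = 0.00658). Ppargc1b, a co-activator of mitochondrial genes, had 9.17 in adipocytes, 6.08 in chondrocytes and 5.37 in osteocytes, at least 7.21-fold higher (limma's adjusted p = 0.00366). Rxra, the obligate partner of PPARG on DNA, had 7.71 in adipocytes, 6.09 in chondrocytes and 6.16 in osteocytes (limma's adjusted p = 0.0158).

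The 3 lower members were Gata2, Klf2 and Klf5. Gata2 and Klf2 are known to restrain fat cell differentiation in mouse preadipocytes. Gata2 had 5.50 in adipocytes, 8.59 in chondrocytes and 8.74 in osteocytes, at least 4.81-fold lower in adipocytes (limma's adjusted p = 0.00738). Klf2 had 6.17 in adipocytes, 9.04 in chondrocytes and 10.84 in osteocytes, at least 6.6-fold lower (limma's adjusted p = 0.0203). Klf5, which acts early in fat cell differentiation, had 6.68 in adipocytes, 9.42 in chondrocytes and 10.82 in osteocytes (limma's adjusted p = 0.0172).

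Some secreted proteins of fat cells were higher, with wide gaps between the skeletal arrays. Of 14 with a probe 9 passed the filter, 5 were higher by size and 3 by limma, beside 8.42% and 5.46% of all genes. Fgf21 entered through the adipocyte array alone, where it had to be higher. Lcn2, a carrier of iron-binding siderophores, had 14.87 in adipocytes, 6.24 in chondrocytes and 8.83 in osteocytes, 65.8-fold above the nearer array (difference 7.33, SE 0.92, limma's adjusted p = 0.00653). Angptl4, an inhibitor of lipoprotein lipase, had 13.02 in adipocytes, 9.44 in chondrocytes and 8.76 in osteocytes (limma's adjusted p = 0.00944). Adipoq (adiponectin) had 14.56 in adipocytes, 10.56 in chondrocytes and 8.15 in osteocytes, and although it lay 16-fold above the nearer array it did not pass limma (adjusted p = 0.0785). Lep and Retn, hormones of mature white fat, stayed below 6.32 on all 3 arrays, with 6.07 and 5.53 in adipocytes.

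Markers of brown and beige fat were mostly undetected. Of 14 with a probe 3 passed the filter, of which Elovl3 was higher by size, Tbx15 was lower and Cox7a1 was not called. Over all genes 8.42% were higher and 10.6% lower. Tbx15 had 5.47, 6.76 and 7.43 in the usual order, so only at least 1.35-fold lower is measured (limma's adjusted p = 0.0981). Ucp1, the uncoupling protein of brown fat, had 5.15 in adipocytes, 4.09 in chondrocytes and 4.10 in osteocytes, and Cidea 4.86 in adipocytes, 4.41 in chondrocytes and 4.09 in osteocytes.

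Mitochondrial genes had smaller median differences than the triglyceride and lipase lists. Of 16 fatty acid oxidation genes that passed the filter (20 with a probe), 11 were higher by size, 10 passed limma and 0 were lower. Over all genes 8.42% were higher by size and 5.46% by limma. The median difference of the 16 was 1.64 (1.48 floored), and 2 of them entered through the adipocyte array alone. Cpt2, which loads fatty acids onto coenzyme A inside the mitochondrion, had 12.33 in adipocytes, 10.30 in chondrocytes and 9.96 in osteocytes, 4.09-fold above the nearer array (limma's adjusted p = 0.00751). Eci1, an isomerase needed for unsaturated fatty acids, had 12.19 in adipocytes, 9.70 in chondrocytes and 9.42 in osteocytes (limma's adjusted p = 0.00473). Acadm and Acadl, dehydrogenases of the first oxidation step, had 14.10, 12.01 and 12.24 and 9.84, 7.96 and 7.76 in adipocytes, chondrocytes and osteocytes, and both passed limma (adjusted p = 0.0257 and 0.0237). Cpt1a and Cpt1b, which control entry into the mitochondrion, were below 6.32 on all 3 arrays.

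The citrate cycle list had 19 genes past the filter, with 0 lower and a median of 1.24. Of these, 10 were higher by size and 7 by limma, beside 8.42% and 5.46% of all genes. Pcx (pyruvate carboxylase), which refills the cycle and feeds fatty acid synthesis, had 10.39 in adipocytes, 6.40 in chondrocytes and 6.79 in osteocytes, 12.1-fold above the nearer array (limma's adjusted p = 0.00415). Cs (citrate synthase) had 12.21 in adipocytes, 10.29 in chondrocytes and 10.57 in osteocytes, 3.11-fold (limma's adjusted p = 0.0358), and Idh2 was the only one of the 19 below both skeletal arrays, with 10.89, 11.62 and 11.83. Of 27 respiratory chain and ATP synthase subunits past the filter, 10 were higher by size, 7 by limma and 0 lower, and 26 lay above both skeletal arrays by any amount, which holds for 37.9% of all genes. Cycs (cytochrome c) had 12.97 in adipocytes, 10.59 in chondrocytes and 10.30 in osteocytes and Ndufv1, a subunit of complex I, 13.21 in adipocytes, 11.54 in chondrocytes and 11.86 in osteocytes (limma's adjusted p = 0.0484 and 0.032). Of 17 cytosolic ribosomal protein genes, for comparison, 0 were called by either rule and the median was -0.12.

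Several of the highest genes belong to no group above. Cyp2e1, a cytochrome P450 best known from liver, had 11.72 in adipocytes, 4.60 in chondrocytes and 4.52 in osteocytes and 4.92 and 4.84 in the MSC arrays, at least 42.1-fold higher (difference 7.16, SE 0.26, limma's adjusted p = 0.000155). Acsm3, which activates medium-chain fatty acids, had 11.08 in adipocytes, 4.46 in chondrocytes and 4.76 in osteocytes, at least 27.1-fold higher (limma's adjusted p = 0.000528). Sptlc3, a subunit of the enzyme that starts sphingolipid synthesis, had 10.67 in adipocytes, 4.67 in chondrocytes and 4.58 in osteocytes, at least 20.4-fold higher (limma's adjusted p = 0.000596). All 3 were below the level in both skeletal cultures. Folds here are those of the probe used, and other probes of Acsm3 and Sptlc3 gave nearer differences down to 2.64 and 2.73.

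Genes better known from liver and airway were among them too. Fga, the fibrinogen alpha chain, had 10.29 in adipocytes, 4.81 in chondrocytes and 5.02 in osteocytes, at least 15.7-fold higher (limma's adjusted p = 0.000528). Cyp2f2, a P450 of the mouse airway, had 11.06 in adipocytes, 5.41 in chondrocytes and 6.23 in osteocytes, at least 26.6-fold higher (limma's adjusted p = 0.00256). Gsta3, a glutathione transferase, had 13.06 in adipocytes, 5.08 in chondrocytes and 7.76 in osteocytes, 39.4-fold above the nearer array (limma's adjusted p = 0.0137), a call lost without the offset.

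On the other side, the genes lower in adipocytes included 3 inhibitors of matrix metalloproteases. Timp3, the inhibitor that binds the matrix, had 6.57 in adipocytes, 12.24 in chondrocytes and 13.47 in osteocytes, 51-fold below the nearer array (difference -6.29, SE 0.51, limma's adjusted p = 0.00239). Timp1, a soluble inhibitor, had 8.11 in adipocytes, 13.49 in chondrocytes and 12.49 in osteocytes, 20.8-fold below (difference -4.88, SE 0.48, limma's adjusted p = 0.00293). Timp2 had 10.38 in adipocytes, 14.17 in chondrocytes and 14.40 in osteocytes (limma's adjusted p = 0.0181). In MSCs d 0 Timp1 had 13.58, Timp2 13.82 and Timp3 11.65, so that for these 3 inhibitors the adipocyte array stood below the MSC array as well.

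Some of the proteases they inhibit were also lower. Of 15 matrix proteases and inhibitors that passed the filter (17 with a probe), 8 were lower by size, beside 10.6% of all genes, and 7 by limma, beside 4.88%, with 0 higher and a median of -2.03. Mmp2 (gelatinase A) had 7.88 in adipocytes, 14.07 in chondrocytes and 12.61 in osteocytes, 26.6-fold below (limma's adjusted p = 0.0102). Mmp14, the membrane protease that activates MMP2, had 9.11 in adipocytes, 13.83 in chondrocytes and 12.36 in osteocytes (limma's adjusted p = 0.0156). Mmp13, a collagenase of cartilage and bone, did not separate the lineages this way, with 10.57 in adipocytes, 14.74 in chondrocytes and 8.82 in osteocytes.

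Among collagens and the enzymes that process them, lower genes were called and no higher ones. Of 25 past the filter (26 with a probe), 13 were lower by size and 9 by limma, beside 10.6% and 4.88% of all genes. In this list 0 were higher, and its median was -1.74 (-1.57 floored). Col1a1, the main collagen of bone, had 4.82 in adipocytes, 12.38 in chondrocytes and 8.38 in osteocytes, at least 4.15-fold lower, but did not pass limma (adjusted p = 0.0589), as the skeletal arrays themselves differed by 4.0. Its partner Col1a2 had 7.71 in adipocytes, 13.19 in chondrocytes and 10.47 in osteocytes (limma's adjusted p = 0.0411). Col8a1, a short-chain collagen, had 6.55 in adipocytes, 12.37 in chondrocytes and 10.02 in osteocytes, 11-fold below (limma's adjusted p = 0.0196). Pcolce, which speeds the trimming of procollagen, had 9.75 in adipocytes, 13.02 in chondrocytes and 13.16 in osteocytes, and P4ha2, which hydroxylates its prolines, 9.12 in adipocytes, 11.84 in chondrocytes and 11.86 in osteocytes (limma's adjusted p = 0.0158 and 0.00456). The basement membrane collagens Col4a1 and Col4a2, which surround mature fat cells, lay above both skeletal arrays, with 12.29, 11.33 and 11.07 and 11.07, 10.28 and 10.11 in the usual order, without passing limma (adjusted p = 0.379 and 0.326).

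Of 22 fibronectin, proteoglycan and matricellular genes past the filter (26 with a probe), 13 were lower by size and 7 by limma. Over all genes the shares were 10.6% and 4.88%. In this list 0 were higher, and its median was -2.11 (-1.34 floored). Of the 22, 7 were below 6.32 in adipocytes, so they entered through the skeletal side and had to be lower. Fn1 (fibronectin) had 7.17 in adipocytes, 11.49 in chondrocytes and 11.30 in osteocytes, 17.5-fold below (limma's adjusted p = 0.00728). Fbln2, which links matrix fibres, had 8.36 in adipocytes, 12.85 in chondrocytes and 12.44 in osteocytes, 17-fold below (limma's adjusted p = 0.00256). Ccn2, a matricellular growth factor known as a target of YAP and TGF-beta signalling, had 10.29 in adipocytes, 14.76 in chondrocytes and 14.23 in osteocytes (limma's adjusted p = 0.00366). Dcn (decorin), a small collagen-binding proteoglycan, had 5.40 in adipocytes, 9.75 in chondrocytes and 11.71 in osteocytes and 5.20 in MSCs p 4, and did not pass limma (adjusted p = 0.194).

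**Figure D3:**
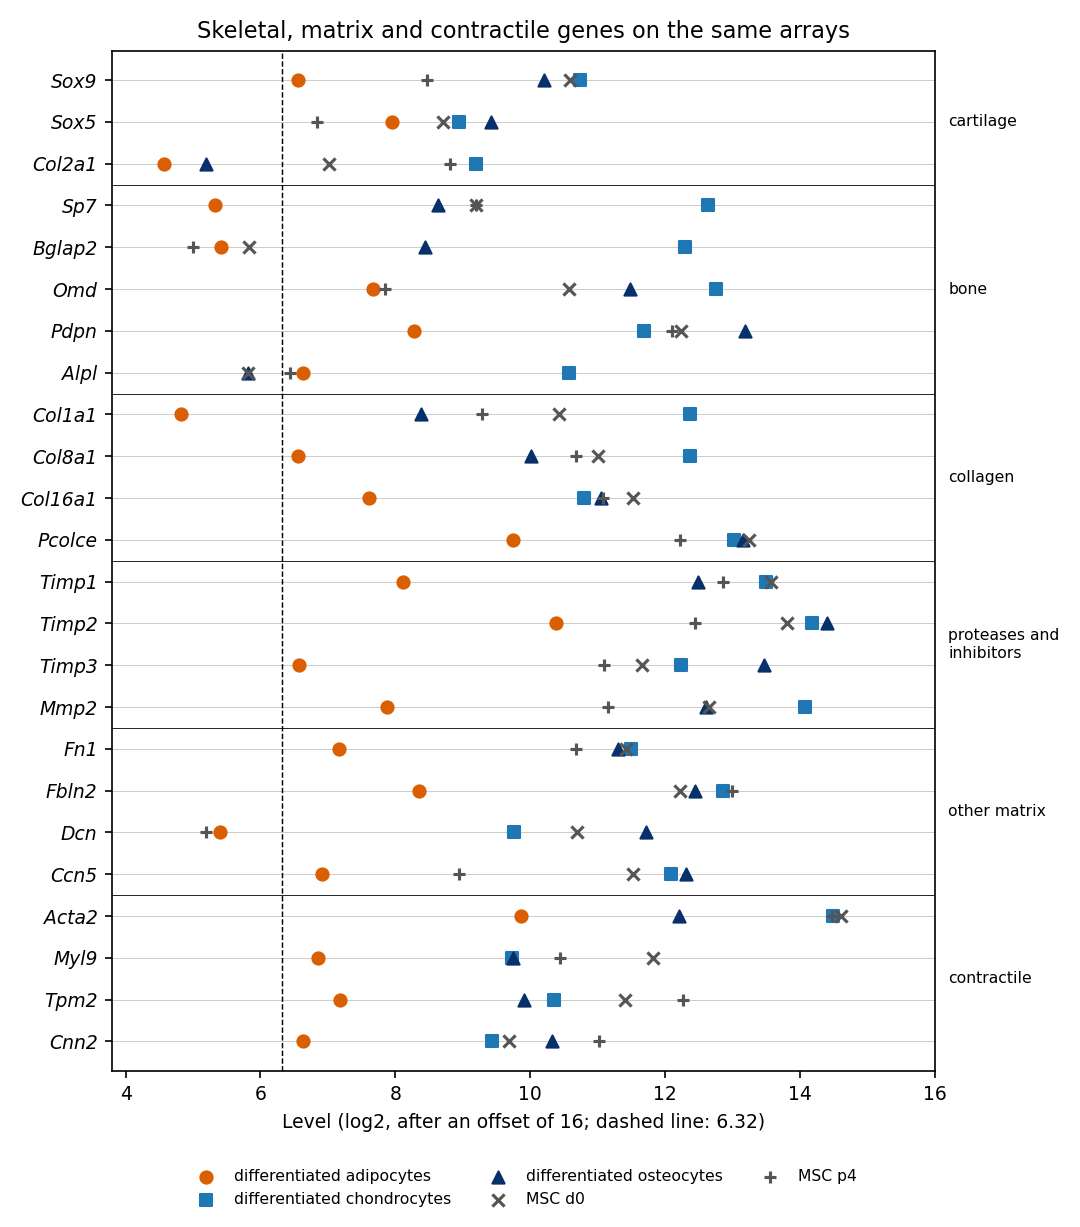
Log2 levels (x axis, after an offset of 16) of cartilage, bone, matrix and contractile genes (rows), with 1 symbol for each of the 3 differentiated and 2 MSC arrays; the dashed line is the level of 6.32. The adipocyte symbol (orange circle) lies left of both skeletal symbols in every row but Alpl, where it lies between them, and the chondrocyte and osteocyte symbols are far apart for Col2a1, Sp7, Bglap2, Alpl and Col1a1.

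Of the skeletal regulators Sox9 was called lower by size and by limma, and Sp7 by size alone. Sox9 had 6.56 in adipocytes, 10.75 in chondrocytes and 10.20 in osteocytes, 12.5-fold below the nearer array (difference -3.92, SE 0.89, limma's adjusted p = 0.0368), beside 10.59 and 8.48 in the MSC arrays. The call of Sox9 was lost under 6 of 17 alternatives, with adjusted p from 0.0178 to 0.213 in limma. Sp7 had 5.33 in adipocytes, 12.64 in chondrocytes and 8.64 in osteocytes, at least 4.99-fold lower, and did not pass limma (adjusted p = 0.056). Sox5, a partner of SOX9, had 7.95 in adipocytes, 8.94 in chondrocytes and 9.41 in osteocytes and was called by neither rule (limma's adjusted p = 0.417). Of 10 cartilage genes past the filter (26 with a probe), 1 (Sox9) was called lower by size, near the 10.6% of all genes. The count depended on the offset and on the array: without the offset it was 6, against chondrocytes alone 9 and against osteocytes alone 2. Of all 8685 genes, 1101 were lower without the offset, 1593 against chondrocytes alone and 1407 against osteocytes alone. In adipocytes 4 of the 10 cartilage genes were below 6.32.

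Of 15 osteoblast and osteocyte genes past the filter (25 with a probe), 9 were lower and 1 higher by size, and 3 and 0 by limma. Over all genes 10.6% were lower and 8.42% higher by size, and 4.88% and 5.46% by limma. The median of the 15 was -3.23 (-2.52 floored). Of the 15, 7 were below 6.32 in adipocytes, so they entered through the skeletal side and had to be lower. Pdpn (podoplanin), a membrane protein of early osteocytes, had 8.28 in adipocytes, 11.69 in chondrocytes and 13.19 in osteocytes, 10.6-fold below (limma's adjusted p = 0.00751). Tnfrsf11b (osteoprotegerin), the decoy that restrains osteoclast formation, had 6.09 in adipocytes, 10.06 in chondrocytes and 8.58 in osteocytes, at least 4.79-fold lower (limma's adjusted p = 0.0316). Bglap2, an osteocalcin gene, had 5.42 in adipocytes, 12.30 in chondrocytes and 8.45 in osteocytes and did not pass (limma's adjusted p = 0.0673). Phospho1, a phosphatase that starts mineral formation, was the 1 higher gene, with 9.04 in adipocytes, 6.96 in chondrocytes and 5.82 in osteocytes (limma's adjusted p = 0.0985). Bglap and Bglap2 are near-identical copies, so that signal on their probes may be shared.

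The gene with the largest nearer difference on this side was Mgp (matrix Gla protein, an inhibitor of calcification), with 8.29 in adipocytes, 14.94 in chondrocytes and 14.39 in osteocytes. It was 68.6-fold below the nearer array but did not pass limma (adjusted p = 0.0775), with 13.72 and 9.75 in the MSC arrays. Gpnmb, a glycoprotein of osteoblasts and macrophages, had 4.50 in adipocytes, 10.30 in chondrocytes and 10.37 in osteocytes, at least 15.8-fold lower (limma's adjusted p = 0.0253). Another probe of Gpnmb had a nearer difference of -1.63, against -5.80 for this one. Emp1, an epithelial membrane protein, had 8.57 in adipocytes, 14.21 in chondrocytes and 13.82 in osteocytes, 38.2-fold below, with the smallest adjusted p of the genes lower here that are named (limma's adjusted p = 0.000528). Aebp1, a matrix protein also known to repress fat cell differentiation in mouse cells, had 8.26 in adipocytes, 13.07 in chondrocytes and 13.41 in osteocytes, 28-fold below (limma's adjusted p = 0.00339).

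Some genes of the actin cytoskeleton were lower. Of 22 past the filter (25 with a probe), 9 were lower by size and 7 by limma, beside 10.6% and 4.88% of all genes, with 0 higher and a median of -1.20. Acta2, smooth muscle actin, had 9.87 in adipocytes, 14.49 in chondrocytes and 12.20 in osteocytes beside 14.62 and 14.48 in the MSC arrays (limma's adjusted p = 0.0383), a call lost under 10 of 17 alternatives. Myl9, a myosin light chain of smooth muscle, had 6.85 in adipocytes, 9.74 in chondrocytes and 9.75 in osteocytes, 7.38-fold below (limma's adjusted p = 0.0204). Tpm2, a tropomyosin, had 7.18 in adipocytes, 10.36 in chondrocytes and 9.90 in osteocytes (limma's adjusted p = 0.00871), and Cnn2, a calponin, 6.63 in adipocytes, 9.44 in chondrocytes and 10.32 in osteocytes (limma's adjusted p = 0.0185). Tagln, which shares a regulator with these genes, was dim, with 4.81 in adipocytes, 6.50 in chondrocytes and 5.0 in osteocytes, and Srf, that regulator, had 9.17, 8.97 and 9.41, within 2-fold of both skeletal arrays.

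The promoters of Myl9 and Cnn2 are shown because both hold the CArG box, the element that SRF binds (in capitals). In Myl9, on the plus strand of chr2:156775214-156775513, it begins 161 bases before the start, and in Cnn2, on the plus strand of chr10:79988350-79988649, it begins 56 bases before it. They come from the same RefSeq table and span the same window.
Myl9: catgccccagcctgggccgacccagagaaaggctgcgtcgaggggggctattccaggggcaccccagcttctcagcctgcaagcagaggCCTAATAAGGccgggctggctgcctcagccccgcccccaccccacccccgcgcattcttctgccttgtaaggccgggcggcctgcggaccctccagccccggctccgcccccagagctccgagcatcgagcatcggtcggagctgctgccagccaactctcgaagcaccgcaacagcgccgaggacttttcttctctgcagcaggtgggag
Cnn2: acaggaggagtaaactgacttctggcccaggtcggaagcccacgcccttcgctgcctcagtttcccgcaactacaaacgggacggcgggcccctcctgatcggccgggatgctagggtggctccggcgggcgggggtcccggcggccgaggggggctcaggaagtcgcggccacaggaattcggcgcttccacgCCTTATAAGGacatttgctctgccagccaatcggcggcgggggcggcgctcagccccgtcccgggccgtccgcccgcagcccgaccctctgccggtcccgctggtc

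The CArG box was in 3.03% of the promoters of lower genes, 0.974% of those of higher genes, 1.35% of those of genes kept and 1.57% of all promoters. The letters GGAATG, bound by TEAD factors, were in 16%, 12.0%, 12.0% and 14.6%, and the element that NRF1 binds (GCGCA, 1 base, then GCGC) in 3.72%, 10.2%, 11.5% and 4.78%, in the same order. Of 12 motifs searched, the others were the cell cycle homology region TTTGAA, the box named after its letters CCAAT, the E-box CACGTG, the sterol element TCACNCCAC, the ERR element TCAAGGTCA, which contains the hexamer, and the AP-1 element TGANTCA. They were in 12.8%, 37.2%, 8.55%, 0.966%, 0.0% and 6.62% of the promoters of lower genes and in 11.6%, 39.3%, 10.8%, 0.958%, 0.254% and 4.82% of those of genes kept. No test was made of these shares.

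Cell cycle genes were lower by size in 18 of 25 members past the filter (36 with a probe), with 0 higher, yet only 2 passed limma. Over all genes 10.6% were lower by size and 4.88% by limma. The adipocyte array was below 6.32 for 12 of the 25, which entered through the skeletal arrays alone and so had to be lower. The median was -1.76 (-1.27 floored). Rrm2, a subunit of the enzyme that makes DNA building blocks, had 5.52 in adipocytes, 10.51 in chondrocytes and 10.14 in osteocytes, at least 14.1-fold lower (limma's adjusted p = 0.0245), though its probes differed, from -4.62 to 0.0 in the nearer difference. Cenpa, the centromere histone, had 7.43 in adipocytes, 10.70 in chondrocytes and 10 in osteocytes (limma's adjusted p = 0.0411). Top2a, which untangles replicated DNA, had 4.95 in adipocytes, 7.76 in chondrocytes and 7.34 in osteocytes beside 8.73 and 10.37 in the MSC arrays, and did not pass (limma's adjusted p = 0.0537). Pcna and Ezh2 were level on all 3 arrays, with 9.28, 9.24 and 9.15 and 7.29, 7.10 and 7.12.

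Of 25 Wnt, TGF-beta and BMP pathway genes past the filter (30 with a probe), 15 were lower by size and 3 by limma. Over all genes the shares were 10.6% and 4.88%. In this list 0 were higher, and its median was -1.74 (-1.38 floored). Of the 25, 7 were below 6.32 in adipocytes, so they entered through the skeletal side and had to be lower. Wnt10b, a ligand known to block fat cell differentiation, had 4.35 in adipocytes, 6.51 in chondrocytes and 6.47 in osteocytes, against 8.25 and 7.30 in the MSC arrays (limma's adjusted p = 0.0352). Its skeletal levels lay just above 6.32 and its adipocyte level below, so the bound on its fold is well under 2-fold. Tgfb2, a TGF-beta ligand, had 5.54 in adipocytes, 8.37 in chondrocytes and 7.76 in osteocytes, at least 2.72-fold lower (limma's adjusted p = 0.00814). Inhba, which forms activin A, had 6.72 in adipocytes, 10.60 in chondrocytes and 9.19 in osteocytes (limma's adjusted p = 0.0411). Among receptors, Fzd1 had 8.54 in adipocytes, 10.09 in chondrocytes and 10.47 in osteocytes and did not pass (limma's adjusted p = 0.121), and Tgfbr1 had 10.59, 10.35 and 10.04. Bmp8a, a BMP ligand outside the list, had 4.97 in adipocytes, 10.92 in chondrocytes and 10.11 in osteocytes, at least 13.8-fold lower (limma's adjusted p = 0.0124).

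**Figure D4:**
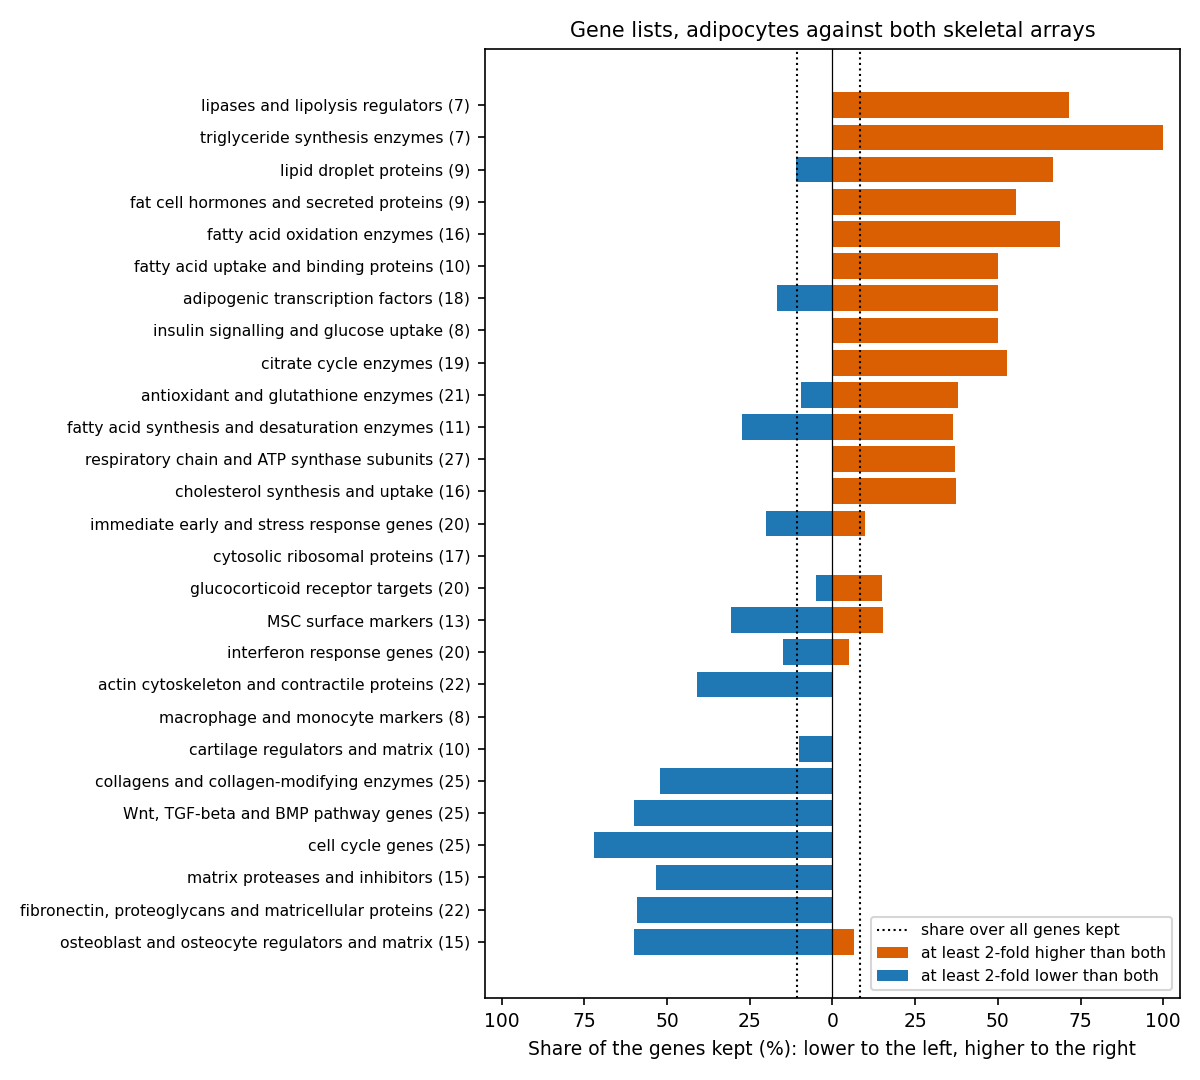
Share of the genes kept in each list (percent, x axis; number of genes in brackets) that lay at least 2-fold above both skeletal arrays (orange, to the right) or below both (blue, to the left), ordered by the median difference of the list. The dotted lines mark the shares over all genes, 8.42% higher and 10.6% lower; triglyceride synthesis reaches 7 of 7 higher and cell cycle genes 18 of 25 lower.

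The same contrast could be made on the 3 arrays of reprogrammed cells, which share no array with the one above, although they enter limma's spread. There 25 genes (0.288%) were at least 2-fold above both reprogrammed skeletal arrays in reprogrammed adipocytes, and 202 (2.33%) were below both. The 3 reprogrammed arrays were closer to each other, with Pearson's r across genes from 0.947 to 0.975.

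Of the 731 genes higher in differentiated adipocytes, 2 had the same call in reprogrammed adipocytes (0.274%, beside 0.288% of all genes, and 8.0% of the reprogrammed list) and 13 the opposite call (1.78%, beside 2.33%). The 2 were Fabp5, with 7.78 in reprogrammed adipocytes, 6.43 in reprogrammed chondrocytes and 5.54 in reprogrammed osteocytes, and Noct, a phosphatase with a daily rhythm in many tissues, with 9.84, 8.82 and 7.72. Cidec had 4.63, 4.52 and 4.76, all below 6.32, and Pparg 11.07, 10.75 and 10.27. The share of higher genes with the same call was thus near the background. With values floored at 6.32, an alternative chosen after seeing the data, the reprogrammed contrast called 23 genes higher and 147 lower, and of the genes called in differentiated cells 2 of the higher and 50 of the lower had the same call, and 11 and 10 the opposite call.

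Of the 919 lower genes, 67 had the same call (7.29%, beside 2.33% of all genes, and 33.2% of the 202) and 10 the opposite call (1.09%, beside 0.288%). Matrix genes were among these 67. Mgp had 9.55 in reprogrammed adipocytes, 12.70 in reprogrammed chondrocytes and 13.38 in reprogrammed osteocytes. Gpx3, a secreted glutathione peroxidase, had 6.32, 10.99 and 11.67, and Ccn5, a matricellular protein, 6.78, 10.30 and 10.89. Sox9 had 8.78, 9.97 and 10.12. Timp3 and Emp1, near the top in differentiated cells, did not have it, with 11.59, 11.43 and 11.42 for Timp3 and 13.84, 13.88 and 13.82 for Emp1. These shares were not tested, and genes of 1 pathway are not independent.

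**Figure D5:**
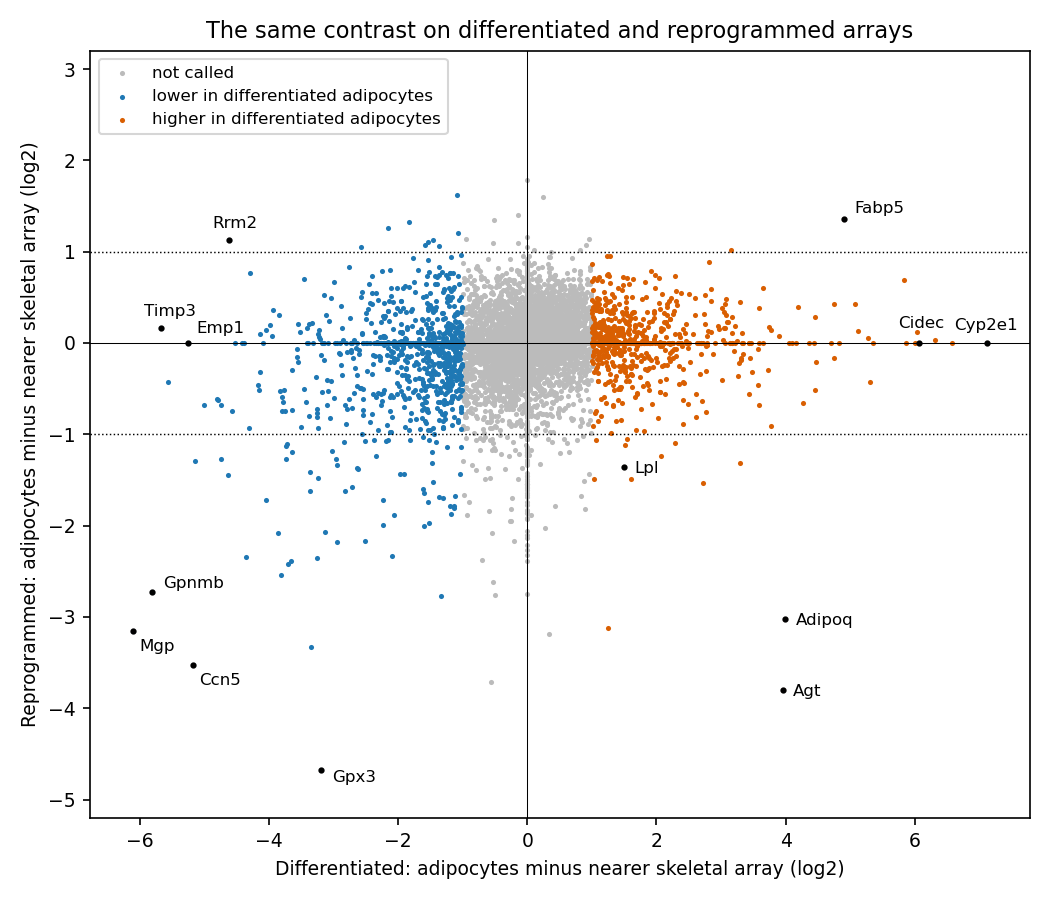
Nearer log2 difference of adipocytes from the skeletal arrays among differentiated cells (x axis) and among reprogrammed cells (y axis), for the 8685 genes; a gene between the skeletal arrays lies at 0, and dotted lines mark 2-fold. Most genes called in differentiated cells (orange, blue) lie between the dotted lines; Mgp, Ccn5 and Gpx3 are lower in both, and Adipoq and Agt are higher in differentiated and lower in reprogrammed adipocytes.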

How the data were processed

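Illumina arrays carried biotinylated cRNA (Ambion MessageAmp) made from total RNA isolated by Qiagen RNeasy, per the labels' protocols. The values are the authors' deposited log2 values of 45281 probes. For software, background correction and normalization the sources used here give nothing, and columns with nearly equal sorted values were read as quantile-normalized from the values themselves. A second table has 16 value columns whose names match no label, and none was used. Groups came from the labels' cell types.

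Symbols came from the platform annotation: 34885 probes had 1 symbol, 18 several and 10378 none, and 34807 were updated through RefSeq (GRCm38.p6). Values x became log2(2^x + 16). The filter asked that 1 or more of the 3 arrays compared reach a deposited log2 value of 6, which kept 12835 named probes, and the probe of highest mean over 8 arrays stood for a gene, giving 8685 genes. Of 236 higher genes with several probes, all probes were called alike for 182, and of 303 lower genes for 178. Probes of Ackr4, Hnrnpa2b1 and Actb were called in opposite directions. Folds given for a gene, bounds included, are those of the probe that stands for it. Other probes gave smaller nearer differences, such as 3.97 for Gpat3, 3.69 for Gsta3 and -3.18 for Timp3.

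The size rule and limma 3.58.1 (lmFit, eBayes, two-sided, R 4.3.3, Benjamini-Hochberg at 0.05 over all 8685 genes) are as described in the report. No other test gave an adjusted p. Where 1 side lay below 6.32, the fold is a bound ("at least") in which 6.32 stands for any dim value under it. The fit was tested on simulated data of the same 8685 genes and made 83 calls, 3 of them false. It found 2 of the 67 genes given a log2 change of 1, 20 of the 67 given 2 and 58 of the 66 given 4. In the simulation all arrays varied alike around 1 mean per gene, without differences between lineages or between d and p titles. It therefore cannot check the assumption about the adipocyte array, and its false calls give no error rate for the real data. Named genes are the 15 largest nearer differences per direction among genes called by size, the 4 largest of each of 32 lists, and the cell type markers. Any other gene was picked with its value in view. The members and lists were chosen with earlier results of these data known, so list counts are descriptions. Alternatives covered the offset, the filter on level, the probe rule, the arrays left out, an array-set block and the spread prior.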

Additional observations from a re-analysis of the deposited data

Results flagged for a closer look

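For 5 of the genes named, the adipocyte array lay at least 2-fold beyond both skeletal arrays in 1 direction among differentiated cells. Among reprogrammed cells it lay at least 2-fold beyond both in the other direction. The levels used for this carry the offset and were not floored at 6.32. With 1 array per cell type these differences between the 2 sets of cells were not tested. Adipoq, the fat cell hormone adiponectin, had 5.19 in reprogrammed adipocytes, 8.64 in reprogrammed chondrocytes and 8.21 in reprogrammed osteocytes, a nearer difference of -3.02 against 4.0 in differentiated cells. Its level in reprogrammed adipocytes was below 6.32, so only at least 3.7-fold lower is measured there. Agt, angiotensinogen, had 5.17, 8.97 and 9.66, a nearer difference of -3.80 against 3.96, and for the same reason only at least 6.28-fold lower is measured in reprogrammed cells. Lpl had 12.30, 13.66 and 13.90, a nearer difference of -1.36 against 1.50. Ifi27l2a, an interferon-induced gene, had 4.70, 5.80 and 7.24, a nearer difference of -1.10 against 2.29, but the first pair of these levels lies below 6.32, so no direction is measured for it in reprogrammed cells. Rrm2 was the gene lower in differentiated adipocytes, with a nearer difference of -4.62, and in reprogrammed cells it had 11.15, 10.02 and 9.88, a nearer difference of 1.13.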

How the results depend on the processing

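Counts by the size rule (731 higher, 919 lower) became 216 and 276 when a log2 difference of 2 was asked for, and leaving out 1 skeletal array gave 1070 to 1178 higher and 1407 to 1593 lower. An offset of 64 left 610 lower, and setting adipocytes against the mean of the skeletal arrays gave 1465 lower. Limma's counts (474 and 424) fell to 0 and 0 with the 3 differentiated arrays alone, where 1 degree of freedom remains, and ranged from 189 to 475 higher and from 160 to 717 lower when 1 array was left out, with 308 and 251 without the reprogrammed osteocytes and 280 and 257 without the reprogrammed adipocytes. Under the remaining alternatives each count stayed within 1.5 times. For single genes, 2037 limma values kept their direction and call, 196 lost the call, 59 gained it and 3 reversed, none of these called: Rps19 averaged over probes was 0.88, and with 1 array left out Alpl ranged from -3.96 to 0.81 and Lyz2 from -2.38 to 0.031, each above 0 only without the differentiated chondrocytes. The causes were not tested. Of size values, 298 stayed and 113 moved. Values floored at 6.32 were chosen after seeing the data. Dim genes have bounds only. No paired analysis was possible because each cell type compared has 1 array and shares no replicate of its own with another. With the array set (d or p title) as a block, limma called 420 higher and 387 lower. All 3 arrays compared have d titles and only MSCs have both, so the block leaves every difference as it was. It is the same fit as leaving out either MSC array and checks nothing further.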

Other observations

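Glutathione and antioxidant enzymes were higher in adipocytes for 8 of 21 members past the filter and lower for 2 (6 and 1 by limma). Over all genes 8.42% were higher and 10.6% lower by size. The median difference of the enzymes was 1.05. Cat (catalase), which destroys hydrogen peroxide from peroxisomes, had 12.70 in adipocytes, 8.59 in chondrocytes and 10.04 in osteocytes (limma's adjusted p = 0.0155). Mgst1, a glutathione transferase of membranes, had 14.02 in adipocytes, 10.49 in chondrocytes and 11.41 in osteocytes (limma's adjusted p = 0.0107). Sod1 and Prdx3 also passed limma, with 13.46, 11.40 and 11.81 and 11.13, 9.10 and 9.17 in adipocytes, chondrocytes and osteocytes (adjusted p = 0.019 and 0.017). Of 16 cholesterol genes 6 were higher by size and 3 by limma (Lss, Cyp51 and Insig1), beside 8.42% and 5.46% of all genes. Cyp51, a demethylase of sterol synthesis, had 12.12 in adipocytes, 9.82 in chondrocytes and 8.61 in osteocytes (limma's adjusted p = 0.0271).

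Surface markers of stromal cells were called in both directions, with 2 of 13 higher and 4 lower by size (beside 8.42% and 10.6% of all genes). Mcam (CD146), a marker of cells that line vessels, had 10.07 in adipocytes, 5.61 in chondrocytes and 4.76 in osteocytes, at least 13.4-fold higher (limma's adjusted p = 0.00273). Pdgfrb, a receptor of stromal precursors, had 6.20 in adipocytes, 9.63 in chondrocytes and 9.29 in osteocytes, at least 7.8-fold lower (limma's adjusted p = 0.0102), and Cd44 7.41 in adipocytes, 9.94 in chondrocytes and 9.85 in osteocytes (limma's adjusted p = 0.0109). Of 12 endothelial markers, 1 (Egfl7) reached the level on each of the 3 arrays, and it was higher in adipocytes by size, with 8.62 in adipocytes, 7.39 in chondrocytes and 6.70 in osteocytes (limma's adjusted p = 0.118). Its part in the Mcam value was not tested. Of targets of the glucocorticoid receptor 3 of 20 were higher and 1 lower, beside 8.42% and 10.6% of all genes. Their median of -0.23 turned to 0.07 against chondrocytes alone. Fkbp5, a standard target, had 11.44, 11.39 and 11.78 on the 3 arrays and 6.96 and 7.45 in the MSC arrays. Interferon response genes had 1 of 20 higher and 3 lower, beside 8.42% and 10.6% of all genes. Against osteocytes alone 17 of the 20 were lower, beside 1407 of all 8685 genes. Against chondrocytes alone 4 were higher and 3 lower, beside 1178 and 1593 of all genes. Oasl2 had 6.10, 7.29 and 11.69, with 13.00 in MSCs d 0. Among 20 stress response genes 2 were higher and 4 lower, beside 8.42% and 10.6% of all genes. Atf3, a stress-induced factor, had 8.80 in adipocytes, 5.51 in chondrocytes and 4.89 in osteocytes, at least 5.59-fold higher (limma's adjusted p = 0.0126), while Gadd45b and Ier3 were lower, with 6.41, 8.93 and 8.91 and 8.58, 11.14 and 11.37 (limma's adjusted p = 0.00994 and 0.0356). Of 12 skeletal muscle markers (11 with a probe) Des alone passed the filter, and of lymphoid and erythroid markers 0 of 8 with a probe did.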
